A study of Mus musculus with 29 samples.

Results

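H3K4me1 regions that wild-type microglia carried and IRF8 knockout microglia lacked are described here. H3K4me1 is histone H3 with a single methyl group on lysine 4, mapped by CUT&RUN, in which an antibody guides a nuclease to the chromatin it recognises and the released DNA is sequenced. The members were selected on the deposited H3K4me1 region lists: a merged region had to be listed in both wild-type (WT) libraries and to share no base with a listed region of either knockout (IRF8KO) library. Of 49737 WT consensus regions, 6453 met this rule and are called lost, and 43284 are called kept. The values that chose them, the presence, width and strength of H3K4me1 in these 4 libraries, are given as a description and were not tested.

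The WT and IRF8KO libraries came from microglia sorted from brains of female mice 3 months old, with 2 libraries for each of H3K4me1, H3K27ac and PU.1 in each genotype. IRF8 itself was traced through its EGFP tag, by anti-GFP antibody, in females of the strain IRF8-EGFP. There were 4 such libraries from microglia at postnatal day 9 (P9), 3 at postnatal day 14 (P14), 3 from adults, and 3 from peritoneal macrophages, whose source label reads microglia and for which the titles were followed. The growth protocol shared by all libraries gives adults an age of 3 months, in words that name only WT and IRF8KO. Brain cells for the transcription factor libraries were fixed with 1% PFA. The labels give neither the knockout allele nor which libraries shared an animal, so a spread or p-value covers only these libraries. By the labels, 2 of 3 IRF8KO H3K27ac libraries and 4 of 7 P9 libraries were provided.

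H3K4me1 marks enhancers and the flanks of promoters, and H3K27ac, the acetylation of lysine 27, is added at those that are active. PU.1 is the ETS-family pioneer factor of macrophages and microglia. IRF8 is an interferon regulatory factor of the myeloid lineage that binds DNA with PU.1 at composite ETS-IRF sites or with other IRF proteins at interferon response elements, and microglia need it for their normal numbers and morphology.

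Of the lost regions, 30 overlapped both an adult IRF8 consensus region (listed in at least 2 of 3 libraries) and a PU.1 region listed in both WT libraries. The 6 strongest of these in WT are printed here, because they are members with both factors and with active chromatin in WT. Each sequence spans 300 bases around the strongest WT PU.1 summit of replicate 1, is the plus strand of GRCm38.p6 (the mm10 assembly) and is named by its position. Capitals mark matches, on either strand, to the ETS core GGAAGT, to the longer PU.1 letters GAGGAAGT, to the ETS-IRF composite GGAANNGAA and to the interferon response letters GAAANNGAA. GGAAGT lies within GAGGAAGT, so a match can be both, and the composite and interferon letters can overlap.
chr10:38212132-38212431: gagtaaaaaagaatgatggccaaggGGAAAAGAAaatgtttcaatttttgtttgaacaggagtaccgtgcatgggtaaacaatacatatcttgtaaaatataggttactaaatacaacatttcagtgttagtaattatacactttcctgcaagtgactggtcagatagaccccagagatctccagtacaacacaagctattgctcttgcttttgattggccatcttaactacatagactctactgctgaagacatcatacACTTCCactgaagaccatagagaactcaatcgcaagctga
chr4:40936570-40936869: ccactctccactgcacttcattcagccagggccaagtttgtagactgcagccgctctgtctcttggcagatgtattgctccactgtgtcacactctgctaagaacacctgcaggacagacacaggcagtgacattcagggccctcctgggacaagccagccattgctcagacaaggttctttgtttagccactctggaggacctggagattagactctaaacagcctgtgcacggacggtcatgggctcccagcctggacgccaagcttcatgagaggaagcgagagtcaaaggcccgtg
chr17:54003738-54004037: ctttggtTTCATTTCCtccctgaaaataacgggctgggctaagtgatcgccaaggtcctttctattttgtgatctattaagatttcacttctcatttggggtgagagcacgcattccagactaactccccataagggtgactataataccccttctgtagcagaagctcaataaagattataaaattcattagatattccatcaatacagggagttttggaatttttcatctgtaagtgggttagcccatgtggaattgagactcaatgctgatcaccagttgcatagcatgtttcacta
chr1:71115759-71116058: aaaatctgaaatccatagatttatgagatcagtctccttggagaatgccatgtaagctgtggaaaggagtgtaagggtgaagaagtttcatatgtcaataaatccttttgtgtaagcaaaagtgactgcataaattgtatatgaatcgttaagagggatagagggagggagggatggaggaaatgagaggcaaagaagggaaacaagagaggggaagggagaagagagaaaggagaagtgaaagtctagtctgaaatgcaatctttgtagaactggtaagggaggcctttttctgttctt
chr9:121923358-121923657: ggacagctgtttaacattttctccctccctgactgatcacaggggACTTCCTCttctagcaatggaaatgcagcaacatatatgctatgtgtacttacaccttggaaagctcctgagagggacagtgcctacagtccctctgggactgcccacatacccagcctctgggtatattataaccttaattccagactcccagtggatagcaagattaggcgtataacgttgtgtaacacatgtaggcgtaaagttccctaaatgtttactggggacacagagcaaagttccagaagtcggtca
chr1:149841080-149841379: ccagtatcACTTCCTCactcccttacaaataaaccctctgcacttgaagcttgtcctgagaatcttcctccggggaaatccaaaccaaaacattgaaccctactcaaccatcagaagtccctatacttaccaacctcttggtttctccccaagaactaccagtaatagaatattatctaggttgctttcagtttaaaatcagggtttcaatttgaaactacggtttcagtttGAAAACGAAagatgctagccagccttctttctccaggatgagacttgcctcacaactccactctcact

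The windows on chromosomes 10, 17 and 9 and the second window on chromosome 1 held at least 1 match, and the window on chromosome 4 and the first window on chromosome 1 held none. Every match lay on the flank of its window, with its centre 86.5 to 139 bases from the summit. Matches also lay beside the summit among all 15969 WT PU.1 summits of replicate 1: GAGGAAGT was present in 1.63% of 100-base windows centred on a summit, in 6.47% of those centred 150 bases to a side and in 0.589% of those 1000 bases to a side. At the 36 WT PU.1 consensus regions that lay in lost regions alone, 300 bases around the summit held GAGGAAGT in 13 (36.1%), against 19.0% of the 5102 in kept regions and 19.1% of all 5358. The shorter GGAAGT was in 50% of those in lost regions and in 54.2% of those in kept regions. For the 353 adult IRF8 consensus regions in lost regions alone, the same window around the summit of replicate 2 held GGAANNGAA in 25.2%, against 16.3% of the 14944 in kept regions and 16.3% of all 16722 that had such a summit. GAAANNGAA was in 16.7% against 12.7%, GAGGAAGT in 7.08% against 9.66%, and GGAAGT in 37.7% of both. These shares are descriptions, and a match is not a bound site.

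Lost regions were narrow and weak in WT. Their median width was 2434 bp, against 3896 bp for kept regions, and the widest had 12625 bp. Strength is expressed as the percentile of the authors' −log10 p within a list, taking the lower of both WT libraries, and its median was 28.9 for lost and 70.4 for kept regions. The authors' fold enrichment over the control had a median of 2.08 and 1.99 in the 2 WT libraries at lost regions, and of 2.83 and 2.42 at kept regions. Together the lost regions covered 17.4 Mb of 251 Mb, or 6.92% of the bases in WT consensus regions. Most lost regions were not far from knockout signal: the median gap to the nearest IRF8KO H3K4me1 region was 3009 bp, 1288 lay within 1000 bp of one and 84.1% within 10000 bp. Just inside the rule, 140 lost regions lay within 100 bp of a knockout region, the nearest at 1 bp. Just outside it, 133 kept regions had under 100 bp covered in both knockout libraries, the least 1 bp.

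**Figure D1:**
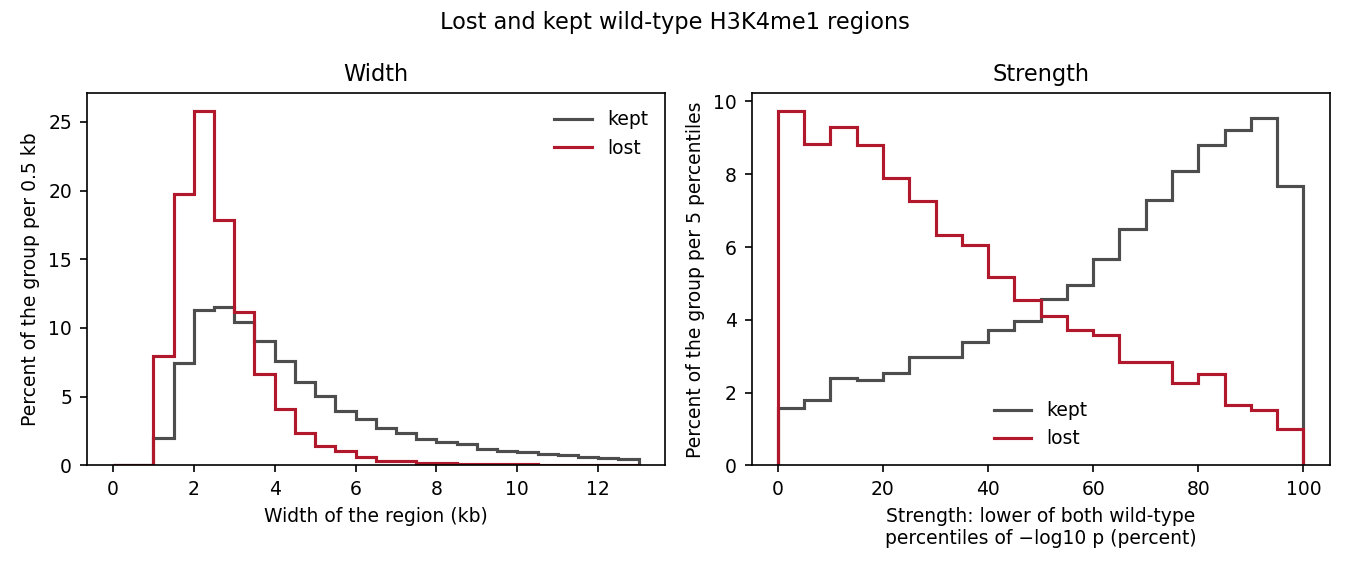
Width in kb (left) and strength as a percentile (right) of lost (red) and kept (grey) WT H3K4me1 regions, as the percent of each group per bin. Both groups are most frequent between 2 and 3 kb, with a longer tail of wide regions among the kept. Lost regions thin out toward high percentiles, where kept regions become more frequent. Regions wider than 13 kb are not drawn.

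The 4 H3K4me1 libraries held 14119640 to 23884530 fragments, and their lists covered 293 and 321 Mb in WT and 314 and 468 Mb in IRF8KO, with overlap between the genotypes. Of the WT consensus regions, 24.7% had no region in IRF8KO replicate 1 and 19.0% none in replicate 2, and the share absent from both was 13.0%. This number depends on each library: without IRF8KO replicate 2 it was 12263 regions and without IRF8KO replicate 1 it was 9470. Requiring a single WT list raised it to 57225 without WT replicate 1 and 34549 without WT replicate 2. It was 13631 when a knockout region had to cover at least 50% of the WT region. In bulk libraries, fewer cells that carry a mark and less of the mark per cell cannot be told apart.

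The share lost fell steeply with WT strength. It was 40.2% of the 5880 regions below the 20th percentile, 13.2% between the 40th and the 60th, and 2.15% of the 7616 at or above the 90th. With only WT regions of a −log10 p of at least 5 admitted, 83 of 4049 consensus regions were lost, a share of 2.05%. Each mark is therefore given for all lost regions and for the strongest.

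H3K27ac was less frequent at lost regions than at kept ones in all 4 libraries. To compare like widths, kept regions were weighted so that 10 strata of width counted as they do among lost regions. This made the medians equal, at 2434 bp. The widest stratum has no upper limit, so the weighted kept regions stayed wider in the tail, with a 95th percentile of 6328 bp against 4855 bp. Kept regions of the same widths are meant with this limit throughout. A WT H3K27ac region was present at 20% of lost regions in replicate 1 and at 18.5% in replicate 2, against 51.6% and 44.3% of kept regions of the same widths. In IRF8KO the shares at lost regions were 10.2% in replicate 1 and 2.62% in replicate 2, against 40.3% and 13.8%. IRF8KO replicate 2 was the shallowest H3K27ac library, with 8572250 fragments and 31524 regions against 14670239 to 20229780 fragments and 72354 to 88400 regions in the other H3K27ac libraries. It also listed 155 regions on chromosome Y, where the other 24 lists, all labelled female too, held 0 to 26. Lost regions thus had a fraction of the share at kept regions: 0.387 and 0.418 in WT, and 0.253 and 0.189 in IRF8KO. Both WT ratios lay above both IRF8KO ratios, although with 2 libraries against 2 the smallest exact p is 0.333 and no test was made. The ratio for regions listed in both WT H3K27ac libraries was 0.327. It was 0.116 without WT H3K4me1 replicate 1, 0.213 without WT H3K4me1 replicate 2, 0.552 when strength was matched along with width, 0.497 when a knockout region had to cover at least 50% of the WT region, and 0.985 for the 83 strong members.

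H3K27ac regions inside lost H3K4me1 regions were themselves mostly absent from the knockout. Of 764 WT H3K27ac consensus regions in lost regions alone, 611 had no region in either IRF8KO H3K27ac library, a share of 80%. Over all 36697 WT H3K27ac consensus regions the share was 34.0%, and in kept H3K4me1 regions it was 29.1% of 31074. The H3K27ac regions in lost regions were the weaker ones, at a median percentile of 42.2 against 61.0. Weighted to the same strength, those in kept regions were absent in 37.0%. In each knockout library alone, 82.6% and 96.5% of those in lost regions were absent, against 40.7% and 77.7% of the strength-weighted ones in kept regions.

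The strongest lost regions carried H3K27ac in WT about as often as kept ones and seldom in IRF8KO. Among the 164 lost regions at or above the 90th percentile, 92.7% had H3K27ac in WT replicate 1 and 89.6% in WT replicate 2, against 95.1% and 90.9% of kept regions of the same widths in that class. In IRF8KO replicate 1 the share was 14.6% against 72.3%, and in replicate 2 it was 4.88% against 34.8%. Of these 164 regions, 110 (67.1%) were in the WT H3K27ac consensus and had no H3K27ac region in either knockout library, as had 524 (8.12%) of all 6453.

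PU.1 was rare at lost regions. A PU.1 region was listed at 2.39% of them in WT replicate 1 and at 1.35% in WT replicate 2, against 9.88% and 6.80% of kept regions of the same widths. In IRF8KO the shares were 0.449% and 0.899%, against 7.62% and 7.88%. The ratio of lost to kept was 0.242 and 0.198 in WT and 0.0589 and 0.114 in IRF8KO, without overlap between the genotypes, where the smallest exact p is again 0.333 and no test was made. The PU.1 lists held 10181 and 12508 regions in IRF8KO and 14055 and 9489 in WT, and covered 5.30 and 6.10 Mb against 6.88 and 4.68 Mb. The header thresholds were stricter for replicate 1 than for replicate 2 in both genotypes (q of 0.01 and 0.05), and the replicates had different control libraries. For PU.1 regions listed in both WT libraries the ratio was 0.128. It was 0.0398 without WT H3K4me1 replicate 1, 0.0812 without WT H3K4me1 replicate 2, 0.242 without IRF8KO H3K4me1 replicate 2, 0.198 without WT PU.1 replicate 1 and 0.242 without WT PU.1 replicate 2. It was 0.271 with strength matched too, 0.328 with the 50% rule of cover and 0.262 for the 83 strong members, of which only 5 had such a PU.1 region.

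Of the 36 PU.1 consensus regions in lost regions, 27 (75%) had no PU.1 region in either knockout library. The share over all 5358 WT PU.1 consensus regions was 25.1%, and in kept regions it was 24.6%. PU.1 regions in kept regions weighted to the same strength were absent in 22.9%. Among the 164 strongest lost regions, 35 (21.3%) had PU.1 in at least 1 WT library and 4 (2.44%) in at least 1 IRF8KO library. By library, the WT shares were 18.3% and 10.4%, against 33.3% and 25.9% of kept regions of the same widths in that class. The IRF8KO shares were 0.610% and 1.83%, against 23.5% and 22.8%.

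IRF8 was also less frequent at lost regions taken as a whole. In adult microglia it was listed at 4.88%, 8.68% and 5.50% of lost regions in replicates 1 to 3, against 14.3%, 24.8% and 12.6% of kept regions of the same widths. At P14 the shares were 2.03%, 4.79% and 1.84%, against 6.26%, 15.3% and 6.07%. At P9, where the lists were short, they were 0.449%, 0.527%, 0.589% and 0.403%, against 0.986%, 0.863%, 1.73% and 0.930%. The log2 ratio of lost to kept averaged -1.38 ± 0.325 (SD, n = 10) and was below 0 in 10 of 10 microglia libraries, with an exact two-sided sign-flip permutation p of 0.00195, the smallest that 10 libraries can give. The 10 libraries share the same H3K4me1 regions and several share a control, so they are not 10 independent looks at the contrast. Over the 3 adult libraries alone the mean was -1.42 ± 0.199 (SD), with an exact permutation p of 0.25, which is the smallest possible. With strength matched along with width the mean was -0.51 ± 0.419 (SD, n = 10) and 8 of 10 libraries were below 0 (exact permutation p = 0.0117). Both libraries above 0 were from P9, replicates 1 and 2. Replicate 1 was above 0 (0.00878) only through the 0.5 regions added to the lost count, and its plain ratio was 0.989. The P9 mean was then -0.13 with 2 of 4 below 0 (exact permutation p = 0.75). The smallest p that 4 libraries can give is 0.125, so nothing about P9 is read from this test. The adult and P14 means were -0.70 and -0.83, with all 6 libraries below 0. Without WT H3K4me1 replicate 1 or 2 the mean over the 10 libraries, matched for width alone, was -2.99 or -2.21.

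At the strongest members matched for width the order was turned. Among WT regions of a −log10 p of at least 5, adult IRF8 was listed at 54.2%, 75.9% and 48.2% of the 83 lost regions, against 47.5%, 65.1% and 38.0% of kept regions of the same widths. At P9 it was listed at 7 to 11 of the 83 in replicates 1 to 3 and at 4 in replicate 4, which is 4.82% to 13.3% against 4.44% to 8.52%. At P14 the lost regions were above in replicates 1 and 3 and below in replicate 2 (43.4% against 47.5%). The log2 ratio averaged 0.37 ± 0.434 (SD, n = 10) and was above 0 in 9 of 10 libraries (exact two-sided sign-flip permutation p = 0.00586). Without matching for width, kept regions of this class carried adult IRF8 at 60.8%, 76.0% and 51.8%. That was above the lost ones in replicates 1 and 3 and level with them in replicate 2. Kept regions of this class were wider, with a median of 6448 bp against 3586 bp. Strength within the class was not matched, and the cause was not tested.

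**Figure D2:**
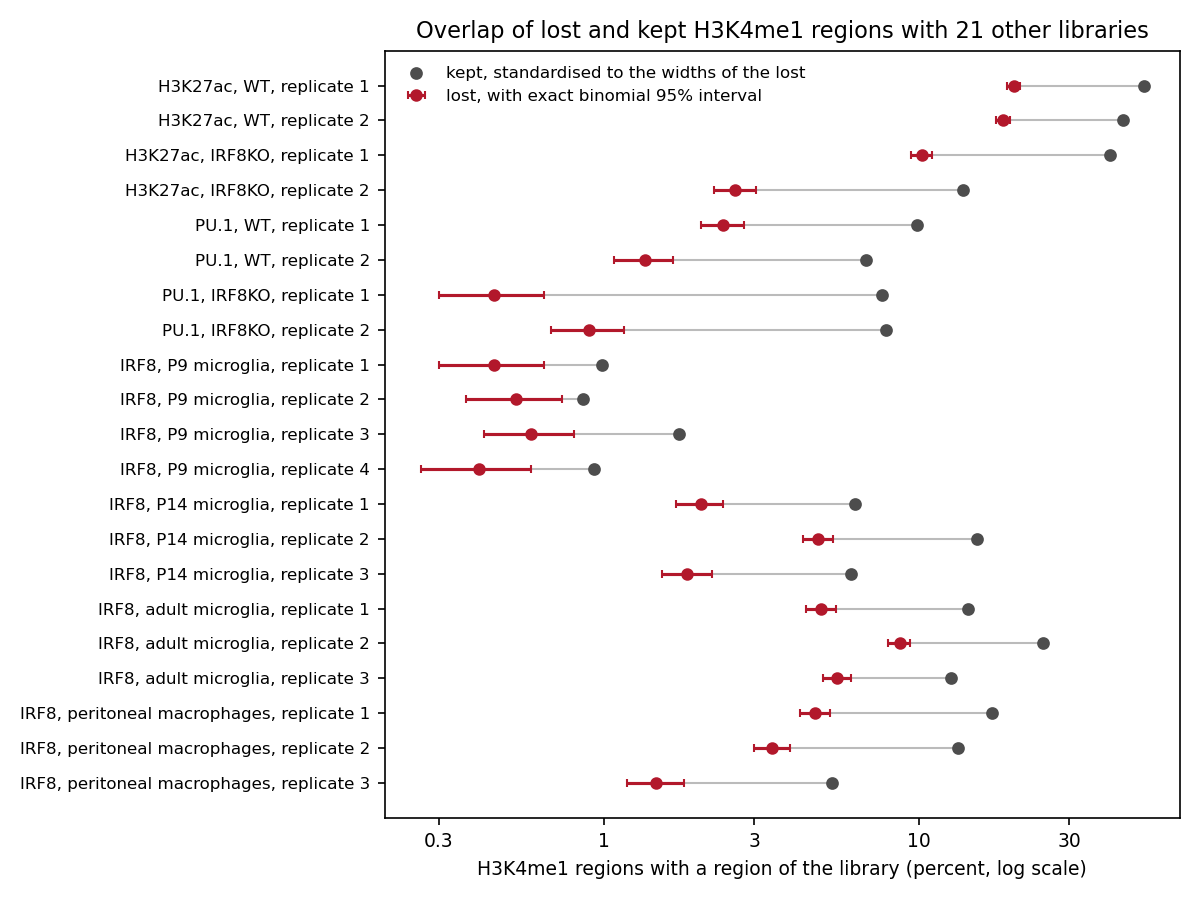
Percent (log scale) of lost H3K4me1 regions (red, with exact binomial 95% intervals that cover counting error only) and of kept regions weighted to the same widths (grey) that held a listed region in each of 21 libraries. The red point lies to the left of the grey one in every library, and closest to it in P9 replicate 2 (0.527% against 0.863%).

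**Figure D3:**
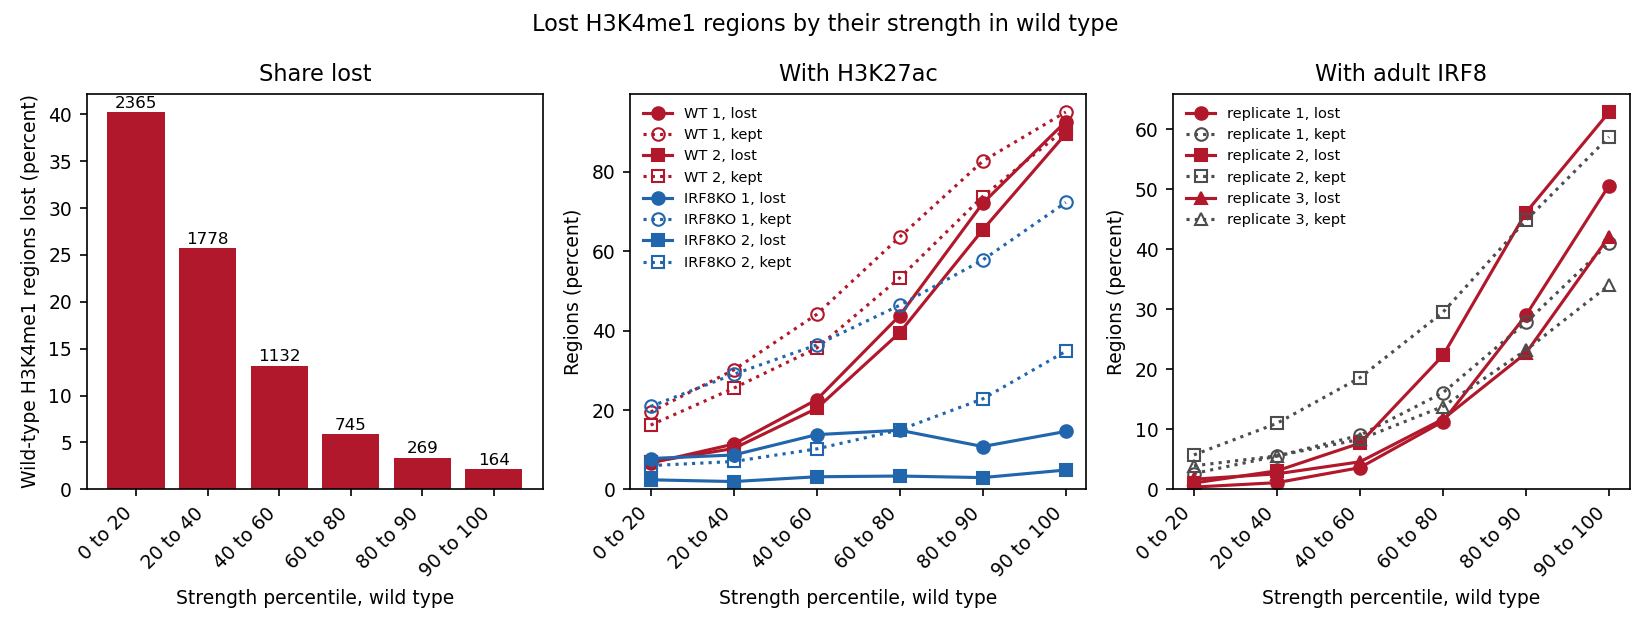
Lost regions by class of WT strength percentile. Left, the percent of WT regions lost, with the number lost above each bar. Middle and right, the percent of lost (filled, solid) and width-weighted kept regions (open, dotted) with H3K27ac in each WT and IRF8KO library and with IRF8 in each adult library. In the top class the lost regions come near the kept ones in WT H3K27ac and lie above them in adult IRF8, and stay at 14.6% and 4.88% in IRF8KO H3K27ac.

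Peritoneal macrophages, another macrophage type, gave lower IRF8 ratios than microglia. IRF8 was listed there at 4.70%, 3.42% and 1.47% of lost regions, against 17.1%, 13.3% and 5.29% of kept regions of the same widths. The log2 ratios were -1.95 to -1.84, all below the 10 microglia libraries (-1.71 to -0.69). The difference of 0.51 had an exact two-sided permutation p of 0.0140, with P9, P14 and adult microglia pooled. At the 83 strong members the shares were 22.9%, 15.7% and 4.82%, against 37.3%, 31.3% and 10.8%, so that here the lost regions were below the kept ones in 3 of 3 libraries.

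The 10 strongest lost regions all had H3K27ac in both WT libraries, and 8 of them had none in either knockout library. The first, at chr10:38209462-38214009, lay between genes, 610 kb from the nearest start, that of Rfpl4b. Its H3K4me1 fold enrichment was 7.53 and 6.04 in WT, the highest of any member in both libraries, and the nearest IRF8KO region was 16.6 kb away. H3K27ac was 14.8-fold and 18.3-fold and PU.1 8.07-fold and 5.17-fold over the control in WT, and neither was listed in IRF8KO. IRF8 was listed there in 3 of 3 adult libraries (21.3-fold, 14.4-fold and 7.04-fold), in 3 of 3 P14 and 1 of 4 P9 libraries, and in no peritoneal macrophage library.

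The second, at chr4:40936325-40937571, lay in an intron of Bag1, which encodes a co-chaperone. H3K4me1 was 6.17-fold and 5.01-fold and PU.1 6.78-fold and 6.21-fold in WT. IRF8 was listed in 3 of 3 adult libraries and 1 of 3 P14 libraries. A region near Sult1c1, a sulfotransferase gene, at chr17:54000735-54005797, had H3K27ac at 10.8-fold and 15.0-fold and PU.1 at 6.05-fold and 4.14-fold in WT, and neither in IRF8KO. For IRF8 it was listed in all adult and P14 libraries, 3 of the 4 from P9 and 2 of the 3 from peritoneal macrophages. Another member between genes at chr15:67385588-67388291, 210 kb from the start of St3gal1, a sialyltransferase gene, kept H3K27ac in IRF8KO replicate 1 (6.44-fold, against 7.75-fold and 8.18-fold in WT). The member in Hipk2, a kinase gene, at chr6:38740466-38743290, kept it in IRF8KO replicate 2 (4.06-fold) and lay only 0.198 kb from a knockout H3K4me1 region.

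Several other members with both factors had less H3K4me1 and more PU.1. In an intron of Pla2g4a, which encodes a phospholipase that releases arachidonic acid, the region chr1:149838702-149843583 had PU.1 at 18.2-fold and 10.8-fold in WT and was without PU.1 in IRF8KO. Adult IRF8 reached 34.2-fold, 36.8-fold and 19.9-fold. Every P14 and peritoneal macrophage library and 3 of the 4 P9 libraries listed it as well. Its H3K4me1 was 3.83-fold and 3.04-fold, and H3K27ac remained at 3.22-fold in IRF8KO replicate 1, against 11.4-fold and 12-fold in WT. In an intron of Trappc9, a gene of a vesicle-tethering complex, chr15:73033883-73037048 had PU.1 at 24.7-fold and 19.3-fold in WT and also kept H3K27ac in IRF8KO replicate 1 (3.24-fold). At chr9:48556424-48559998, 39.2 kb from the start of Nnmt, a methyltransferase gene, PU.1 was 21.2-fold and 7.24-fold and IRF8 was listed in all 13 libraries. At chr8:103938747-103942281 PU.1 was 25.2-fold and 6.55-fold. The nearest start there was that of Cdh5, an endothelial cadherin gene, at 161 kb. None of the 10 strongest members with both factors had PU.1 in either IRF8KO library.

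The widest lost region had as its nearest start that of Sall1, which encodes a transcription factor that sets microglia apart from other macrophages. It spanned 12625 bp between genes at chr8:89278882-89291506, 241 kb from the start of Sall1. H3K4me1 was 3.22-fold and 2.54-fold in WT. H3K27ac reached 11.2-fold and 17.0-fold in WT and was listed in neither knockout library. IRF8 was listed near the centre in 3 of 3 adult libraries (24.5-fold, 25.2-fold and 11-fold) and 3 of 3 P14 libraries (12.5-fold, 16.6-fold and 6.44-fold), and in none of the 4 P9 or 3 peritoneal macrophage libraries. No PU.1 region of either genotype lay within 40 kb. IRF8KO H3K4me1 replicate 1 listed nothing within 40 kb, and replicate 2 listed 6 regions of 1.72-fold to 2.76-fold there, the nearest 3.58 kb from the member. The second widest (12124 bp, in an intron of Macc1) and the one after it (11017 bp, in an intron of Stxbp6) also had H3K27ac in both WT libraries and in no knockout library, and IRF8 in 3 of 3 adult libraries. A knockout H3K4me1 region lay 0.728 kb from the member in Macc1 and 0.152 kb from that in Stxbp6.

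**Figure D4:**
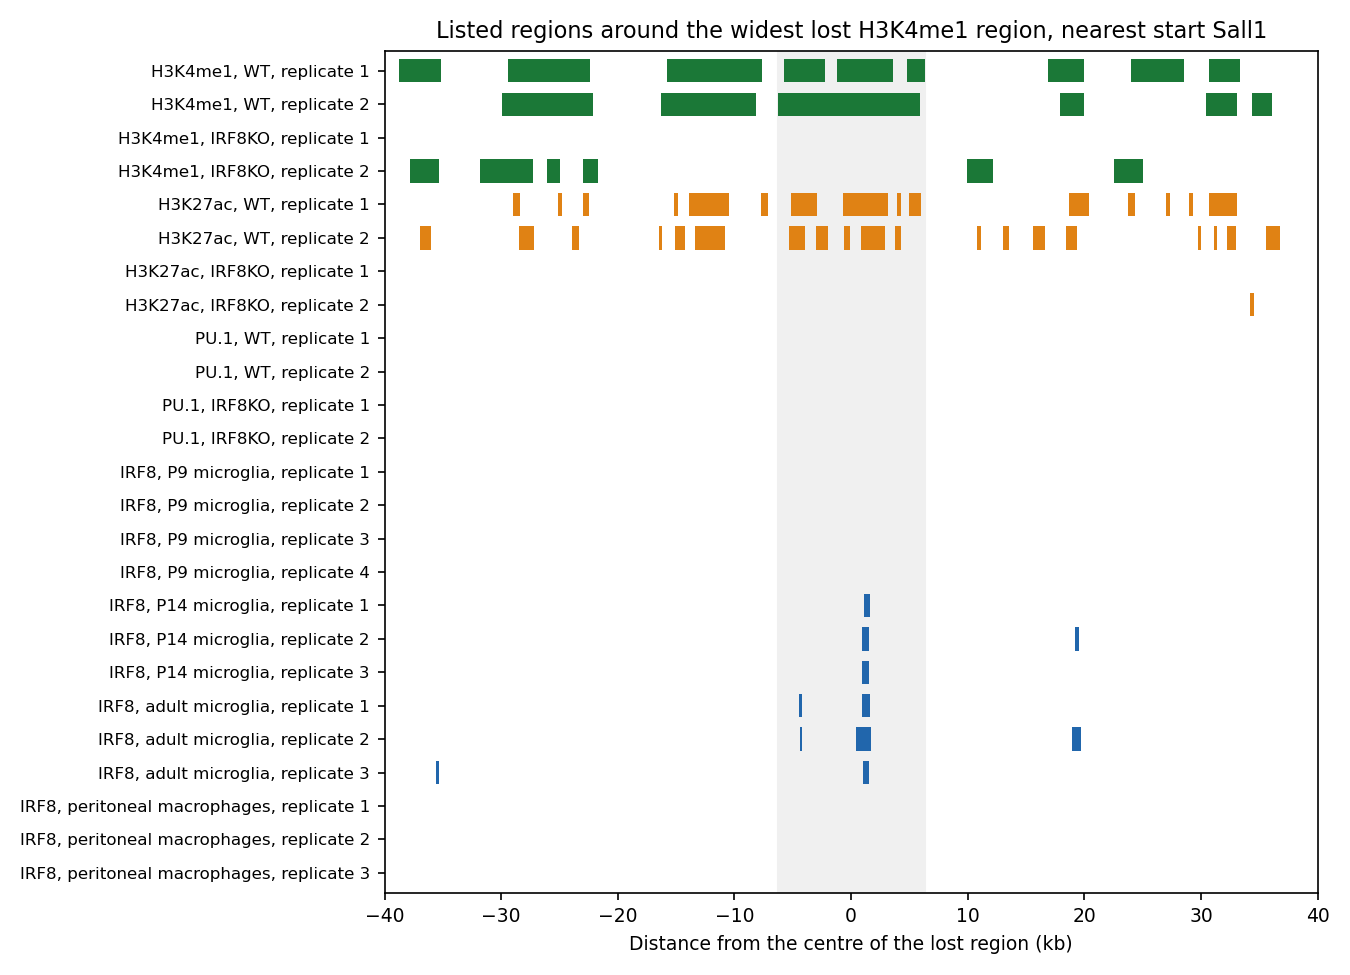
Listed regions of 25 libraries within 40 kb of the centre of the widest lost H3K4me1 region (grey band), by distance in kb. H3K4me1 is green, H3K27ac orange, PU.1 purple (none listed) and IRF8 blue. The IRF8 regions of the 3 adult and 3 P14 libraries line up about 1 kb from the centre, where both WT H3K27ac libraries have a region and both IRF8KO libraries have none.

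Lost regions lay away from genes and from other H3K4me1 regions. Their median distance to a protein-coding transcription start was 55.2 kb, against 14 kb for kept regions of the same widths. Within 1 kb of a start lay 207 lost regions (3.21%, against 16.4%), and over 50 kb from one lay 3363 (52.1%, against 23.7%). Between protein-coding genes lay 59.9% of lost regions against 39.9%, in introns 36.8% against 51.2%, and in exons 3.30% against 8.84%. With strength matched too, 15.2% of kept regions lay within 1 kb of a start and 26.4% over 50 kb from one. The ratio of lost to kept within 1 kb was 0.196, and it was 0.314 without IRF8KO H3K4me1 replicate 1, 0.30 without IRF8KO H3K4me1 replicate 2, 0.302 with the 50% rule of cover and 0.392 for the 83 strong members. The gap to the nearest other WT consensus region had a median of 17704 bp for lost and 6931 bp for kept regions.

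Loss was clustered along chromosomes. A neighbouring WT region was also lost for 48.8% of lost regions, against 19.9% of kept regions of the same widths. Runs of 2 or more consecutive lost regions numbered 1151 and held 3148 members, and 3305 members stood alone. The longest runs had 10 regions. One covered 0.703 Mb at chr5:87761071-88464245, over the casein genes Csn1s2a and Csn3, which are milk protein genes. The other covered 4.25 Mb without a protein-coding gene at chr8:49055546-53310059. Other runs of 8 fell on the prolactin family on chromosome 13 and on keratin-associated protein genes on chromosome 16. A run of 9 fell in Dmd on chromosome X.

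Chromosome X stood apart. There 531 of 1980 WT regions were lost (26.8%), against 5922 of 47757 on autosomes (12.4%), where the lowest was chromosome 19 with 6.24% and the highest chromosome 3 with 16.2%. Both knockout libraries contributed: 48.0% of X regions were absent from replicate 1 and 31.9% from replicate 2, against 23.7% and 18.5% on autosomes. The share of a whole H3K4me1 list on X was 4.69% and 6.27% in WT and 2.95% and 4.91% in IRF8KO, so the genotypes overlapped by this measure. For H3K27ac it was 2.04% and 2.50% in WT and 2.2% and 2.94% in IRF8KO. No test was made with 2 libraries against 2, and the cause was not tested.

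**Figure D5:**
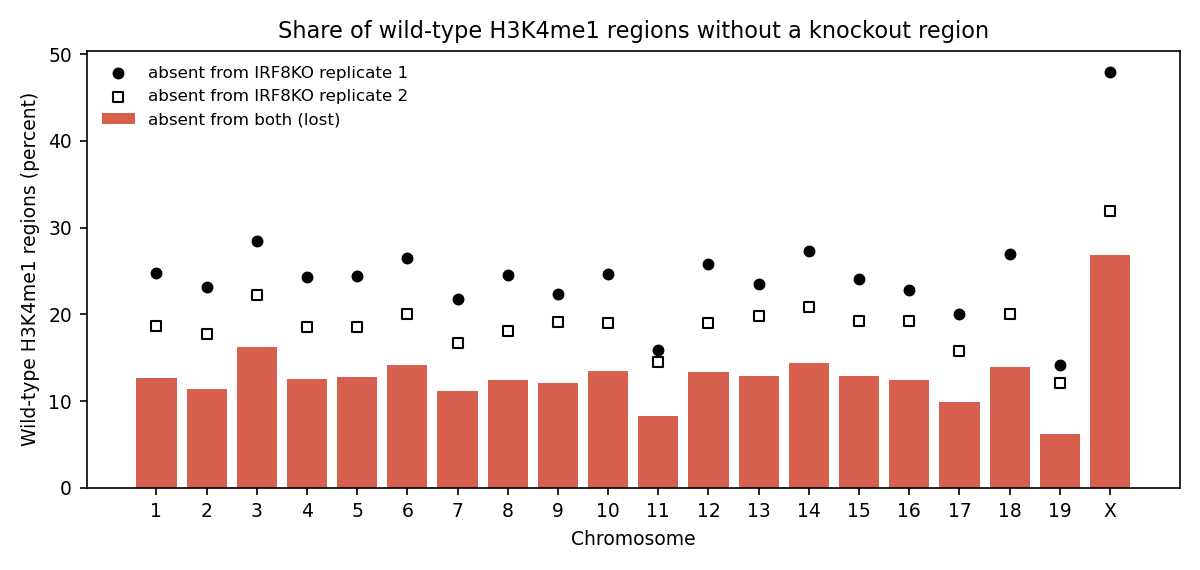
Percent of WT H3K4me1 regions on each chromosome that had no region in IRF8KO replicate 1 (filled circles), replicate 2 (open squares) or either (bars, the lost regions). Chromosome X has the highest values for each, at 48.0%, 31.9% and 26.8%.

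The genes named here were picked for their number or share of lost regions among 1881 genes with at least 1 in the body, and a count favours long genes. Csmd3, a very large gene for a membrane protein, spans 1.21 Mb on chromosome 15 and held 50 WT consensus regions, of which 28 were lost (56.0%). Its gene body held 92 and 109 H3K4me1 regions in the WT libraries and 41 and 47 in IRF8KO, values that the choice of the gene by its lost regions bears on directly. Of its 12 WT H3K27ac consensus regions, 9 had none in the knockout, and no adult IRF8 consensus region lay in it. Over all WT H3K27ac consensus regions 34.0% were absent from both knockout libraries, which is the background for such counts at each gene named here. Fhit, a hydrolase gene at a fragile site, lost 17 of 47, and its per-library counts were 89 and 106 in WT and 52 and 105 in IRF8KO. It also held 8 adult IRF8 and 2 PU.1 consensus regions, and 17 of its 37 H3K27ac consensus regions were absent from the knockout. Dlg2, a postsynaptic scaffold gene, and Magi2, another scaffold gene, lost 12 of 29 each. In Dlg2 the list counts were 76 and 114 in WT and 104 and 137 in IRF8KO, so the genotypes overlapped there, as they did in Magi2 (77 and 85 against 66 and 86).

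Lsamp, a neuronal adhesion gene, lost 11 of 14 (78.6%), the largest share among the 505 genes with at least 10 WT regions, whose median share was 4.55%. It held no H3K27ac, IRF8 or PU.1 consensus region, and its list counts of 68 and 99 in WT and 84 and 113 in IRF8KO overlapped. Dmd, the dystrophin gene, lost 9 of 12 and likewise held none of these, with list counts of 53 and 115 in WT and 22 and 89 in IRF8KO. Tbck lost 7 of 10. Of its 14 H3K27ac consensus regions 12 were also absent from the knockout, where the share over all WT H3K27ac consensus regions was 34.0%. Its lost regions had a median percentile of 71.4 in strength, and its counts were 14 and 15 in WT and 7 and 9 in IRF8KO. Kcnh7, a potassium channel gene, lost 9 of 13, with all 5 of its H3K27ac consensus regions absent from the knockout and list counts of 31 and 33 in WT and 16 and 28 in IRF8KO. Fgf14, which encodes a modulator of sodium channels, lost 7 of 11, and both of its H3K27ac consensus regions were absent from the knockout, while its list counts of 23 and 37 in WT and 38 and 35 in IRF8KO overlapped.

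No H3K4me1 region was lost at the genes of homeostatic microglia. None of the 62 WT regions in or within 10 kb of 24 homeostatic microglia genes was lost, where a count of 0 allows up to 4.84% (3 of 62). Across all protein-coding genes with such regions the share was 7.48%, counting a region once for each gene. That share was not matched for strength or for distance from a start, for this or any other gene list, and both went with the share lost. No region was lost at the antigen presentation genes (0 of 20) or the border macrophage genes (0 of 22), counts that allow up to 15% and 13.6%, above the share over all genes. Of the regions at the disease-associated microglia genes, 1 of 55 was lost, at Ctsl, a lysosomal protease gene. The lost region 241 kb from Sall1 lies outside the 10 kb counted. Of the 24 homeostatic genes, 22 had a WT H3K27ac consensus region within 1 kb of a start, against 0 of 10 neuron genes, 2 of 8 astrocyte genes and 3 of 10 monocyte and neutrophil genes. The border macrophage list had 5 of 11 and the endothelial list 4 of 7.

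Among 54 regions at 22 interferon-stimulated genes, 4 were lost (7.41%), a share at the 7.48% over all protein-coding genes, so that nothing is read from the count. The 4 members are described one by one. Beside Gbp3, a guanylate-binding protein gene, chr3:142574561-142579156 was among the strong members, with H3K4me1 at 4.64-fold and 3.70-fold in WT. It had H3K27ac in both WT libraries and neither knockout library, and an adult IRF8 consensus region. Beside Cxcl10, an interferon-induced chemokine gene, the lost region had H3K27ac in both WT libraries and neither knockout library, with H3K4me1 at 2.83-fold and 1.90-fold and no IRF8 consensus. The member in Usp18, which encodes a brake on interferon signalling, had H3K27ac in WT replicate 1 only. The member in Gbp2 had H3K27ac in IRF8KO replicate 1 only.

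At myeloid transcription factor genes 3 of 91 regions were lost (3.30%, against 7.48% over all protein-coding genes), beside Klf4, Klf6 and Smad3. The region beside Klf6, which encodes a zinc finger factor, kept H3K27ac in both knockout libraries. Tlr4, the receptor for bacterial lipopolysaccharide, had 2 of its 8 regions lost, a 7734-bp region before it and a 4194-bp region after it, and it was the only pattern recognition gene of 16 with a lost region, the list losing 2 of 45 (4.44%). The 14 genes of H3K4 methylation and enhancer cofactors lost 2 of 56 (3.57%), also below the share over all genes. Kmt2c, which encodes an enhancer H3K4 methyltransferase, lost 1 of 10 regions and Kdm5c, an H3K4 demethylase gene on chromosome X, lost 1 of 4. The member in Kmt2c carried an adult IRF8 consensus region.

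Among genes of other brain cell types, neuron genes lost 9 of 45 (20%), among them 3 of 4 in Syt1, which encodes a calcium sensor of synaptic vesicles, and 1 each at Gad1 and Snap25. None of these 9 had H3K27ac in WT or an adult IRF8 consensus region, and the one beside Snap25 had H3K27ac in IRF8KO replicate 1. Astrocyte genes lost 5 of 26 (19.2%), with 2 of 6 at the glutamate transporter gene Slc1a2, and endothelial genes lost 5 of 29 (17.2%), with 2 of 8 in Flt1. The member in Cdh5 had H3K27ac in both WT libraries and neither knockout library. Oligodendrocyte lineage genes lost 0 of 18, which allows up to 16.7%. The counts are small and are set as a description beside the background of 7.48%, which was not matched for strength. The 9 members at neuron genes had strength percentiles of 10.5 to 68.1, and among all WT regions the share lost was highest at low percentiles. A part of other cells in the sorted samples was not tested.

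In sequence, lost regions were poorer in GC than kept ones. The central 1000 bp had a median GC content of 40.4% (quartiles 36.9% and 44.1%), against 45.1% (41.2% and 49.6%) for kept regions of the same widths, and 6 CpG sites against 10. Soft-masked repeats made up a median of 22.1% of a lost region and 18.7% of a kept one. In the same 1000 bp, searched on both strands, GGAAGT was in 52.6% of lost regions against 57.9% of kept regions of the same widths and 54.5% of all. GAGGAAGT was in 9.48% of lost regions against 12.2% of kept regions of the same widths and 10.3% of all WT consensus regions. GAAANNGAA was in 37.6% against 32.3% and 32.8%, and GGAANNGAA in 30.4% against 30.2% and 29.8%. The AP-1 letters TGANTCA were in 28.7% against 26.8% and 26.9%, the RUNX letters TGTGGTT in 21.8% against 21.8% and 21.9%, the C/EBP letters TTGCNNAA in 40.8% against 36.8% and 37.1%, and the MEF2 letters CTATTTTTA in 3.63% against 3.04% and 3.04%. With GC content weighted as well as width, the kept share was 55% for GGAAGT, 11.1% for GAGGAAGT, 36.2% for GAAANNGAA and 28.3% for TGANTCA, so that these differences shrank. It was 41.2% for TTGCNNAA and 4.27% for CTATTTTTA, which turned the direction, 22.5% for TGTGGTT and 30.2% for GGAANNGAA.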

How the data were processed

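The authors mapped the libraries to mm10, and the submitters' processing notes name bcl2fastq, Trim Galore, Bowtie2, deepTools and MACS2. Regions were called for each library separately, per the file headers with MACS 2.2.6 for the histone marks and 2.2.7.1 for IRF8 and PU.1. H3K4me1 was called at p-values of 0.01 for strong and 0.1 for weak regions with a minimum length of 1000 bp. H3K27ac, IRF8 and PU.1 were called at a q-value of 0.01, except PU.1 replicate 2 of both genotypes at 0.05. Each deposited region has a pileup (coverage signal), a −log10 p-value and a fold enrichment over an IgG control. All are the authors' own, and here they serve to describe or rank regions within 1 list. The 4 IgG libraries were not analysed here beyond that. All region ends lie within the GRCm38.p6 chromosome lengths. Genes came from GENCODE vM21.

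Lists were merged per mark and genotype, an overlap being at least 1 bp. Members and lists of genes were chosen with earlier results of these data known. Depth is 7250496 to 24705885 fragments per library, and binomial intervals (exact, 95%) cover counting error only. The log2 ratios of lost to kept for IRF8 had 0.5 regions added to the lost count alone, which lifts them where counts are small. They were tested by exact permutation over libraries. The standardisation was tested on simulated data. The text names the 10 strongest lost regions, the strongest with both factors (at most 10), the 3 widest, the 5 genes with the most and the 5 with the largest share of lost regions, and genes of the lists with a lost region within 10 kb (at most 6 a list); not every one of these is described, and 1 gene of the lists is not reported here. The casein, prolactin and keratin-associated genes were chosen after their values were seen. Genotypes with 2 libraries each were not tested. Python 3.11.15, numpy 2.4.6, pandas 2.3.3 and scipy 1.17.1 were used.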

Additional observations from a re-analysis of the deposited data

Results flagged for a closer look

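The IRF8 ratio of lost to kept regions differed between microglia and peritoneal macrophages, by a test of the difference itself over 10 and 3 libraries. On the log2 scale, microglia were higher by 0.51 for all lost regions matched for width (exact permutation p = 0.0140, adjusted 0.0140), by 0.86 when strength was matched too (p = 0.00699 in the exact permutation test, adjusted 0.0105), and by 1.26 for lost regions of a −log10 p of at least 5 (exact permutation p = 0.00350, adjusted 0.0105, the smallest raw p that 286 arrangements can give). In that last set the microglia libraries ranged from -0.13 to 1.47 and the macrophage libraries from -1.01 to -0.68. Batch numbers are given in the titles of the adult microglia and macrophage libraries alone. Adult minus macrophage was 1.03 within batch 1 and 1.35 within batch 2 for the strong set, and 0.38 and 0.65 for all lost regions. The test pools P9, P14 and adult microglia, so age is mixed into it: with strength matched the mean was -0.125 at P9 and -0.705 in adults. For adults alone the difference from macrophages was 0.468, 0.659 and 1.14 in the 3 comparisons, and it was not tested. The tissues also differed in their IgG control, so tissue and control cannot be told apart. The 3 comparisons share libraries and were chosen after the values were seen.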

How the results depend on the processing

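The direction of the IRF8 ratio depended on 1 setting. With WT regions held to a −log10 p of at least 5, its mean log2 value was 0.37 in place of -1.38, and the number lost was 83, with a share of 2.05%. In that set the ratio of lost to kept was 0.985 for H3K27ac, 0.262 for PU.1 and 0.392 for regions within 1 kb of a start, and 100% of PU.1 regions in lost regions were absent from the knockout, both PU.1 values resting on only 5 lost regions with PU.1. The cause was not tested. Under the other 15 settings the IRF8 ratio stayed below 0, with exact permutation p of 0.00195 to 0.0117.

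The other settings changed sizes but no direction. Requiring a knockout region to cover at least 50% of the WT region gave 13631 lost (27.4%), with ratios of 0.497 for H3K27ac, 0.328 for PU.1 and 0.302 near starts, and 62.0% and 65.4% of H3K27ac and PU.1 regions in lost regions absent from the knockout. Lists of equal length gave 0.365 for H3K27ac and 0.159 for PU.1. Matching strength, strength with width, or nothing gave 0.474, 0.552 and 0.218 for H3K27ac, 0.181, 0.271 and 0.0547 for PU.1, and 0.478, 0.597 and 0.198 for the adult IRF8 consensus (0.350 with width). A region in either H3K27ac library gave 0.437, and 5000 bp from a start gave 0.339 in place of 0.196. Without chromosome X, a choice made after seeing the data, no value moved beyond the spread between libraries. A margin of 1000 bp around lost regions moved none either: the number lost was 5165.

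Leaving out 1 library at a time gave 9470 to 57225 lost (19.0% to 44.1%), mean IRF8 log2 ratios of -2.99 to -1.15, ratios of 0.116 to 0.418 for H3K27ac, 0.0398 to 0.242 for PU.1, 0.204 to 0.314 near starts and 0.336 to 0.357 for the adult IRF8 consensus, and 70.4% to 96.5% of H3K27ac and 63.0% to 94.2% of PU.1 regions absent from the knockout.

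With a replicate block, which sets each WT library against the knockout library of the same number, a single list defines each side, and 58964 regions (50.1%) were lost on average. The ratios were then 0.279 for H3K27ac, 0.168 for PU.1 and 0.274 near starts, the IRF8 mean was -2.27, and 88.2% and 87.9% of H3K27ac and PU.1 regions were absent. The labels tie no number to an animal. Differences between replicates 1 and 2 correlated between genotypes at 0.329 for H3K4me1, 0.177 for H3K27ac and 0.165 for PU.1 over 100-kb bins.

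Limits are the 2 libraries per genotype, the weak regions that make up most members, and region lists in place of read counts: absence from a list is not absence of signal.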

Other observations

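Most lost H3K4me1 regions carried none of the other marks or factors. Of the 6453, 3976 (61.6%) overlapped no region of any of the 21 H3K27ac, PU.1 and IRF8 lists, against 26.3% of kept regions of the same widths. IRF8 was listed in at least 1 P9 library at 60 lost regions, and 54 of these were also in the adult IRF8 consensus. The log2 ratio of lost to kept for IRF8 was higher at P9 than at P14 by 0.54 (exact permutation p = 0.0571, adjusted 0.15) and than in adults by 0.29 (exact permutation p = 0.200). P14 minus adult was -0.25 (exact permutation p = 0.1, the smallest that 20 arrangements can give), so designs of this size leave little room to pass a threshold and nothing is read from these p-values. In the other direction of the same contrast, 14754 of 62025 knockout H3K4me1 consensus regions had no region in either WT list.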
